A study of Mus musculus with 2 samples.

Results

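Mrc1+ macrophages of the adult mouse vomeronasal organ (VNO), the paired chemosensory organ of the nasal septum, were identified as cells carrying both complement C1q RNA and *Mrc1* RNA. Of 24084 barcodes, 10591 had between 200 and 9000 genes and at most 5% of their unique molecular identifiers (UMIs, each a counted RNA molecule) from mitochondrial genes. Among these, 496 cells held at least 10 UMIs of *C1qa*, *C1qb* and *C1qc* together, at least 2 UMIs of *Mrc1* and no UMI of *Cd3d*, *Cd3e* or *Cd3g*, and they are called Mrc1+ cells here. The cells were thus chosen by their own C1q, *Mrc1* and *Cd3* counts. They were 4.68% of the filtered cells (exact 95% confidence interval 4.29 to 5.10) and 29.5% of the 1679 C1q-high cells (27.4 to 31.8). The comparison group was the 952 C1q-high cells with no *Mrc1* UMI, and the 231 cells with exactly 1 UMI were kept apart from both.

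The cells came from whole VNOs of 5 wild-type C57BL/6J male mice at postnatal day 60, dissociated with papain and collagenase, frozen, thawed and captured as 2 libraries with the 10x Genomics 3′ chemistry. No genotype or treatment differed between the libraries, and whether the mice were divided between them or pooled was not given. Library 1 held 12814 barcodes with a median of 5036 UMIs and library 2 held 11270 with a median of 5261. After filtering, 249 of 5694 cells (4.37%) were Mrc1+ cells in library 1 and 247 of 4897 (5.04%) in library 2. The libraries shared 33 barcode sequences in all, 3 among filtered cells and 0 among Mrc1+ cells.

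*Mrc1* encodes the mannose receptor CD206, an endocytic receptor for glycoproteins that is carried by many macrophages living in connective tissue, around vessels and along nerves. Macrophages make the C1q subunits in large amounts, which is why C1q RNA separates them from dendritic cells and from freshly arrived monocytes. Macrophages with high *Mrc1* commonly carry scavenger receptors and chemokines, and those with high MHC class II present peptides to T helper cells. Whether a cell was resident or recently recruited cannot be read from its RNA alone.

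General macrophage genes were present in both libraries. Mrc1+ cells held *Csf1r*, the receptor for the macrophage growth factor CSF1, at 890.2 and 862 counts per 1000000 UMIs (CPM) in the summed cells of libraries 1 and 2, *Adgre1* (F4/80) at 318 and 317 CPM, and *Cx3cr1*, the fractalkine receptor, at 519 and 518 CPM. In *Omp*-expressing neurons of the same libraries, *Cx3cr1* was at 0.202 and 0.349 CPM. *Lyve1*, a marker of one kind of perivascular macrophage, was found in 4 of 496 Mrc1+ cells, *Marco* was at 0 CPM in both libraries and *Cd209a*, a marker of monocyte-derived dendritic cells, was at 8.08 and 2.38 CPM against 1001 and 1004 CPM in C1q-low cells chosen for *Cd209a*.

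The 250 bases before the transcription start are shown for 3 chemokine genes with raised RNA and for the gate gene itself, because *Mrc1* set the gate and *Pf4*, *Ccl12* and *Ccl8* were each several times higher in Mrc1+ cells. The sequences are those of RefSeq on GRCm38.p6 (mm10), on the plus strand from 5′ to 3′, and all 4 genes matched the RefSeq table. For *Mrc1* the window stops 22 bases short, at 228 bases, where the GENCODE gene begins. Capitals mark GAGGAA or its complement TTCCTC, the core bound by the macrophage factor PU.1, TGCTGA or TCAGCA, part of the site bound by the Maf family, and TATAAA, the TATA box. None of the marked motifs overlapped another one in these windows.

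*Mrc1*, chr2:14229164-14229391: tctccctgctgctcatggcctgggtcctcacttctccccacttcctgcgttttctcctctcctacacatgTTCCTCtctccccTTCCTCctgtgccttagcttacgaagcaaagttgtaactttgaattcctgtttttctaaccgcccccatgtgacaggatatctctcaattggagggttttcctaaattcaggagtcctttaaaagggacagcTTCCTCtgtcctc

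*Pf4*, chr5:90772185-90772434: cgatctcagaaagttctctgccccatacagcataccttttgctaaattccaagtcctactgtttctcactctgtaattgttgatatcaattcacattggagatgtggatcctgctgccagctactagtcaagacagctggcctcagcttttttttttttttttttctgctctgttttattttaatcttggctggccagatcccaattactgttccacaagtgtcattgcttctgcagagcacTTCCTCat

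*Ccl12*, chr11:82101595-82101844: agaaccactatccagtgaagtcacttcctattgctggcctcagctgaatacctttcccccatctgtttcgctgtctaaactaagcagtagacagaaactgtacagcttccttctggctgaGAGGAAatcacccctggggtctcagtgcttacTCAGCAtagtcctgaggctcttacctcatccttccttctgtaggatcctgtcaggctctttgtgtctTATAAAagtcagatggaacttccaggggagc

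*Ccl8*, chr11:82114935-82115184: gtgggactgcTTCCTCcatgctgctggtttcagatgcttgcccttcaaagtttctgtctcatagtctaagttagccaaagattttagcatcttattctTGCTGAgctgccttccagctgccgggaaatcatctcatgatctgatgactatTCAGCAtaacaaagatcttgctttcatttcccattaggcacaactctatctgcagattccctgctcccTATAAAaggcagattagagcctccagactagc

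GAGGAA occurred on either strand 3 times before *Mrc1* and once each before *Pf4*, *Ccl12* and *Ccl8*, and 23.3% of the 32851 promoters of the table held it within 250 bases. The Maf motif TGCTGA occurred once before *Ccl12* and 2 times before *Ccl8*, against 16.1% of promoters with a match. TATAAA lay 31 bases before the *Ccl12* start and 32 bases before the *Ccl8* start, and 12.4% of promoters held it on either strand. A match describes letters and not a bound site.

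The values that chose the cells are described first, without a test. *Mrc1* (chromosome 2, 14229392 to 14332057) was at 1083 and 1001 CPM in Mrc1+ cells of libraries 1 and 2, with a median of 4 and 6 UMIs per cell and a highest cell of 34 and 26. Cells with 1 *Mrc1* UMI held 184 and 189 CPM, and the comparison cells 0 by choice. *C1qa* was at 10551 and 9497 CPM in Mrc1+ cells and at 6725 and 6784 CPM in comparison cells. The C1q sum had a median of 146 and 138 UMIs per Mrc1+ cell against 62 and 73 per comparison cell. The limit of 10 UMIs thus lay far below most of the Mrc1+ cells, of which 3 had a sum of 10 to 14. More of the comparison cells lay near it. At a limit of 20 UMIs, 246 of 249 and 245 of 247 Mrc1+ cells remained in libraries 1 and 2. Of comparison cells, 399 of 526 and 350 of 426 remained.

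**Figure D1:**
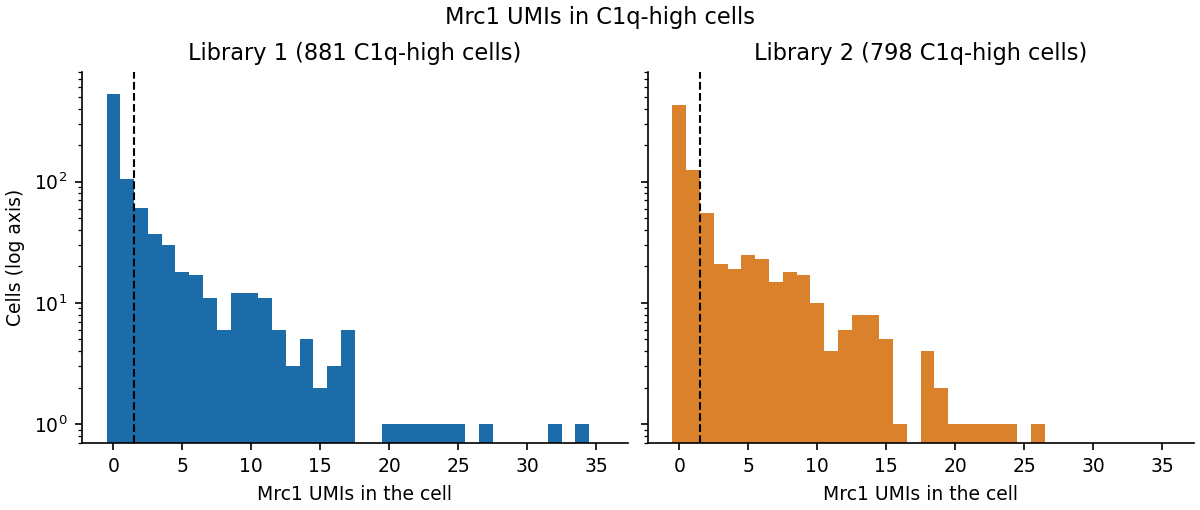
Number of C1q-high cells (vertical, log axis) by *Mrc1* UMIs in the cell (horizontal) in each library, with the gate between 1 and 2 UMIs as a dashed line. The distributions run on from 0 without a gap at the gate, up to 34 UMIs in library 1 and 26 in library 2.

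The gate fell within a continuous distribution. The 116 cells with exactly 2 *Mrc1* UMIs, just inside, held *Pf4* at 1308 CPM, *Fcrls* at 726 CPM and *H2-Aa* at 3082 CPM. The 231 cells with 1 UMI, just outside, held *Pf4* at 651 CPM, *Fcrls* at 506 CPM and *H2-Aa* at 5590 CPM. *Ccl7* was at 248 CPM just inside and 215 CPM just outside. *Ccl8* was not higher inside, at 161 CPM against 190 CPM just outside. A further 22 cells had at least 2 *Mrc1* UMIs but a C1q sum under 10. These held *Pf4* at 26.3 CPM, the fibroblast gene *Dcn* at 1145 CPM, *Cd209a* at 478 CPM and *Lyve1* at 326 CPM. By these genes they were unlike the Mrc1+ cells, in which *Dcn* was at 224 and 80.9 CPM. The 3 Mrc1+ cells with a C1q sum of 10 to 14 were low in several marker genes too, at a median of 13106 UMIs. They held *Pf4* at 51.0 CPM, *Fcrls* at 25.5 CPM, *Ccl7* and *Maf* at 0 CPM, and *Ccl8* at 140 CPM.

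The 4 other genes given as markers of the cells were each several times higher than in comparison cells in both libraries, and they get no test because they came with the choice of the cells. *Pf4*, the chemokine CXCL4 (chromosome 5, 90772435 to 90773383), was at 3192 and 3131 CPM in Mrc1+ cells and at 198 and 178 CPM in comparison cells. It was found in 475 of 496 Mrc1+ cells (95.8%), in 32.7% of comparison cells and in 2.63% of *Omp* neurons, taken here as a background level. Whether the *Pf4* UMIs of these neurons came from free RNA or from doublets was not tested. After each cell was thinned to 3000 UMIs the *Pf4* shares were 91.0%, 20.4% and 0.551%. Cells under 3000 UMIs were left out of that count, which removed 38 Mrc1+ cells, 326 comparison cells and 4 neurons.

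*Fcrls*, an Fc receptor-like gene known from microglia and other long-lived macrophages (chromosome 3, 87250758 to 87263738), was at 1259 and 1192 CPM against 260 and 280 CPM. It was found in 94.0% of Mrc1+ cells and 37.5% of comparison cells. *Ccl8*, whose protein attracts monocytes and T cells, was at 1281 and 1392 CPM against 53.4 and 60.0 CPM. *Ccl7*, a further monocyte attractant, was at 875 and 1050 CPM against 47.5 and 38.0 CPM. Unlike *Pf4* and *Fcrls*, the pair marked only part of the cells. *Ccl8* was found in 46.4% of Mrc1+ cells and 5.04% of comparison cells, and *Ccl7* in 57.3% and 7.14%, with *Ccl8* in 1.32% and *Ccl7* in 0.439% of *Omp* neurons.

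**Figure D2:**
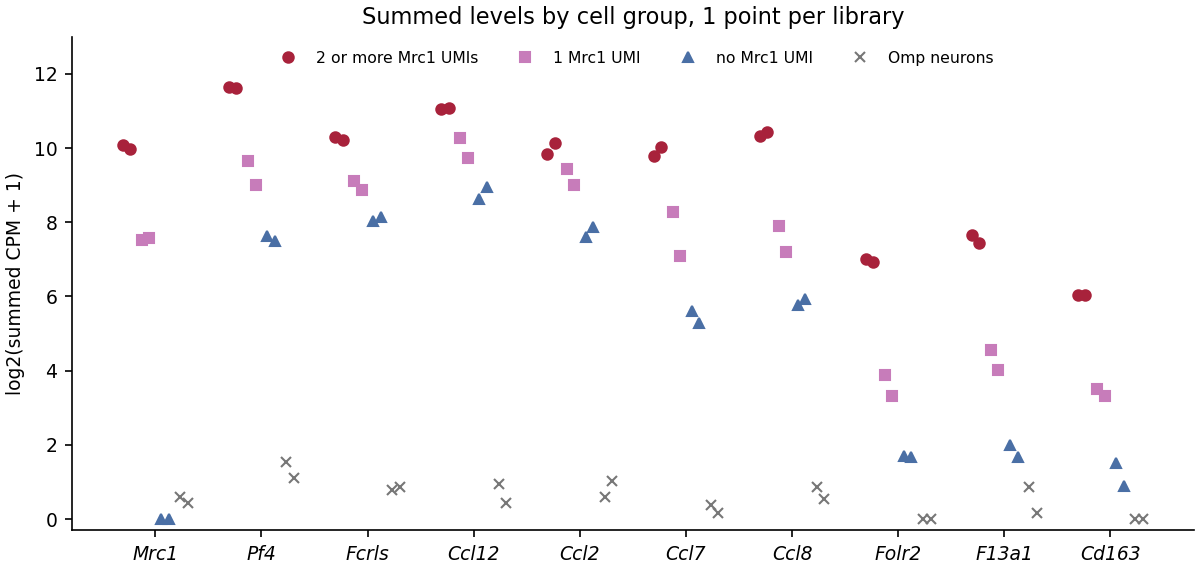
Summed levels as log2(CPM + 1) of 10 genes (horizontal) in 4 cell groups, with 1 point for each of the 2 libraries. For each gene the 2 points of Mrc1+ cells lie above those of the cells with 1 *Mrc1* UMI, which lie above those of the cells with none, while *Omp* neurons lie near 0.

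Across all genes, UMIs were summed into 4 totals, 1 per group and library, and the quasi-likelihood test of edgeR set Mrc1+ cells against comparison cells. Of 13100 genes with at least 10 UMIs, 649 were higher in Mrc1+ cells (4.95%) and 600 lower (4.58%) at a Benjamini-Hochberg adjusted p under 0.05, together 1249 genes (9.53%). Of these, 7 were gate, marker or mitochondrial genes, which are not read as results. A fit with library as a block, since both sums of a library share its capture, called 2123 genes (1064 higher and 1059 lower), and DESeq2 called 789. Because the groups were cut by *Mrc1* in the same cells, a p-value measures only how far the difference exceeds the spread between 2 libraries.

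The largest rises are given for called genes at 50 CPM or more. *F13a1*, the coagulation factor XIII A chain, was at 201 and 174 CPM in Mrc1+ cells and at 2.99 and 2.16 CPM in comparison cells, a log2 fold change of 6.07 ± 0.24 (SE, adjusted p = 6.1e-07). *Folr2*, folate receptor beta, was at 128 and 121 CPM against 2.24 and 2.16 CPM (5.71 ± 0.24, adjusted p = 8.9e-07). *Cd163*, the receptor for haemoglobin bound to haptoglobin, was at 65.3 and 64.3 CPM against 1.87 and 0.863 CPM (5.40 ± 0.32, adjusted p = 1.0e-05). In each case the 2 libraries of one group lay within a narrow range far from the other group.

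*Cd38*, an enzyme that degrades NAD, rose by 4.48 on the log2 scale, with 154 and 167 CPM against 7.85 and 5.61 CPM. *Ccl24*, a chemokine for eosinophils, rose by 4.19, *Pla2g2d*, a secreted phospholipase of lymphoid tissue, by 4.18, *Chp2* by 3.42 and *Clec10a*, a galactose-type lectin, by 3.24, all with an adjusted p of 0.00018 or less. Detection was partial even for these genes. *F13a1* was found in 47.0% of Mrc1+ cells, *Folr2* in 33.7% and *Cd163* in 23.6%, against 1.16%, 1.05% and 0.630% of comparison cells.

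A pair of the 10 largest rises rested on few cells. *Cd209f*, a C-type lectin, had a log2 fold change of 6.45 ± 0.59 (adjusted p = 0.00013), but 10 cells of library 1 and 11 of library 2 held its UMIs, and in library 2 a single cell held 78 of 133. *Vmn1r58*, a pheromone receptor of vomeronasal neurons, had a log2 fold change of 8.33 ± 1.74 (adjusted p = 0.014). Of its 251 UMIs in library 1, 241 lay in 1 cell with 19361 UMIs that Scrublet called a doublet, and library 2 held 14. Without the called doublets the log2 fold change of *Vmn1r58* was 4.42 (adjusted p = 0.013), still with those 14 UMIs in 5 cells of library 2. Of the 14, 7 and 4 lay in cells of 20904 and 20925 UMIs, where the median Mrc1+ cell of library 2 held 5612. In library 1 the cell with the next most *Vmn1r58*, 8 UMIs, held 17679 UMIs in all. Leaving out the library 1 sum of comparison cells ended the call of *Vmn1r58* (adjusted p = 0.056).

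**Figure D3:**
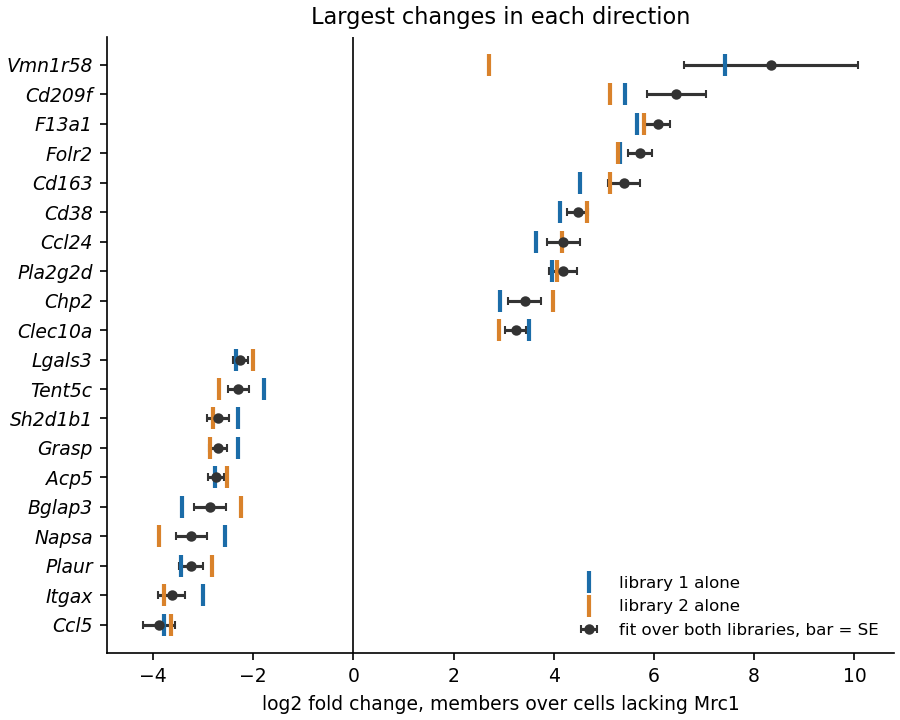
Log2 fold change of Mrc1+ cells over comparison cells for the 10 genes with the largest rise and the 10 with the largest fall, with points and SE bars from the edgeR fit over both libraries. Coloured ticks give each library alone after adding 1 CPM to both groups, which pulls genes near 0 in 1 group toward smaller changes. All ticks lie on the same side of 0 as the fit, and *Vmn1r58* has the widest bar.

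The largest falls are given by the same limit of 50 CPM, so that larger falls of rarer RNAs are not among them. *Ccl5*, a chemokine for T cells, was at 23.6 and 14.9 CPM in Mrc1+ cells against 337 and 197 CPM (log2 fold change -3.88 ± 0.32, adjusted p = 7.2e-05). *Itgax*, which encodes CD11c, was at 7.41 and 4.17 CPM against 66.1 and 69.9 CPM (-3.63 ± 0.27, adjusted p = 3.7e-05). *Plaur*, the urokinase receptor, fell by 3.24, *Napsa*, an aspartic protease, by 3.23, *Acp5*, tartrate-resistant acid phosphatase, by 2.74 and *Lgals3*, galectin-3, by 2.25. *Bglap3* fell by 2.87, *Grasp* by 2.70, *Sh2d1b1* by 2.70, and *Tent5c* fell by 2.29. *Bglap3* lost its call when both groups were held to 4000 to 16000 UMIs per cell or to a C1q sum of at least 20.

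CC chemokines moved in both directions. The called genes of 2 clusters on chromosome 11 differed in direction, with *Ccl2* and *Ccl12* higher in the first and *Ccl5* and *Ccl4* lower in the second. In the first, *Ccl2* (82035571 to 82037453), *Ccl7* (82045712 to 82047525), *Ccl11* (82057823 to 82062955), *Ccl12* (82101845 to 82103400) and *Ccl8* (82115185 to 82116799) lie side by side. *Ccl12* was at 2131 and 2172 CPM against 392 and 490.0 CPM, a log2 fold change of 2.22 ± 0.12 (adjusted p = 6.6e-06). *Ccl2*, the main ligand of the monocyte receptor CCR2, was at 921 and 1116 CPM against 195 and 234 CPM (2.18 ± 0.14, adjusted p = 1.2e-05). *Ccl11*, in the middle of the cluster, had 1 UMI in Mrc1+ cells and 8 in comparison cells.

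In the second cluster, *Ccl5* (83525778 to 83530518) was lower, as given above, and so was *Ccl4* (83662584 to 83664683), a chemokine of activated macrophages, at 2248 and 2224 CPM against 4660 and 5140 CPM (-1.20 ± 0.09, adjusted p = 3.5e-05). *Ccl3* had a log2 fold change of -0.40 (adjusted p = 0.070), *Ccl9* of -0.40 (adjusted p = 0.28) and *Ccl6* of 0.25 (adjusted p = 0.48). Of 9 CC chemokines tested, 3 rose, 2 fell and 4 did not pass, with a median log2 fold change of 0.25 against -0.011 over all genes. Among 9 CXC chemokines, *Cxcl16* fell by 0.83 and 8 did not pass (median -0.83). For these and all later lists, the shares over all 13100 genes tested were 4.95% higher and 4.58% lower.

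Of 8 chemokine receptors, 2 rose and 3 fell. *Ccr1*, a receptor for several CC chemokines, was at 159.6 and 132 CPM against 18.7 and 26.3 CPM (2.64 ± 0.20, adjusted p = 4.0e-05). *Ccr2*, the receptor by which monocytes leave the marrow, was at 20.9 and 16.7 CPM against 70.6 and 77.7 CPM (-2.05 ± 0.20, adjusted p = 0.00019). *Cxcr4* fell by 1.16 and the decoy-type receptor *Ccrl2* by 0.95. *Cx3cr1*, found on many tissue macrophages, rose by 0.52 (adjusted p = 0.025).

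In single cells the chemokine genes overlapped but did not coincide. All 5 of *Ccl2*, *Ccl7*, *Ccl8*, *Ccl12* and *Pf4* were found in 119 of 496 Mrc1+ cells (24.0%, exact 95% confidence interval 20.3 to 28.0) and in 3 of 952 comparison cells. The share was 19.7% in library 1 and 28.3% in library 2. None of the 5 was found in 6 Mrc1+ cells and in 361 comparison cells. *Ccl7* and *Ccl8* were both present in 169 Mrc1+ cells, *Ccl7* without *Ccl8* in 115, *Ccl8* without *Ccl7* in 61 and neither in 151.

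As a description over cells that share a library, the Spearman correlation of *Ccl7* and *Ccl8* UMI shares was 0.318 over 249 cells and 0.384 over 247 cells. For *Pf4* and *Mrc1* it was 0.567 and 0.483, for *Ccl8* and *Mrc1* 0.403 and 0.353, for *Pf4* and *Selenop* 0.440 and 0.379, and for *Ccl12* and *Ccl2* 0.197 and 0.224. These pairs were positive in both libraries, while those with the summed share of *H2-Aa*, *H2-Ab1* and *H2-Eb1* were negative. The latter were -0.393 and -0.301 for *Mrc1*, -0.408 and -0.305 for *Pf4*, -0.247 and -0.236 for *Ccl8* and -0.230 and -0.223 for *Selenop*.

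Scavenger receptors take up modified proteins, lipids and microbes. The genes listed with them, which included lectins such as *Clec10a* and *Cd209f*, were higher in 8 of the 11 tested and lower in 0 (median log2 fold change 2.49). Beside *Cd163*, *Clec10a* and *Cd209f* these were *Stab1*, at 405 and 394 CPM against 35.9 and 69.5 CPM (2.87 ± 0.24, adjusted p = 7.4e-05), *Clec4n* (dectin-2), at 324 and 268 CPM against 53.1 and 47.5 CPM, *Msr1*, *Cd36* and *Cd209g*. *Cd209g* was found in 8 Mrc1+ cells, all of which also held *Cd209f*, and in 0 of 952 comparison cells, where a count of 0 allows a share of up to 0.315% of cells with a UMI and sets no limit on cells that express the gene below detection. *Colec12*, *Scarb1* and *Cd5l* did not pass, and *Marco*, *Lyve1* and *Stab2* had too few UMIs to be tested.

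The genes listed for tissue-resident macrophages were higher in 12 of 14 tested (median 2.68). *Selenop*, the selenium carrier, was at 2456 and 2246 CPM against 654 and 632 CPM (1.80 ± 0.11, adjusted p = 1.2e-05). *Gas6*, the bridge between dying cells and the receptors AXL and MERTK, was at 358 and 399 CPM against 38.9 and 55.7 CPM (2.94 ± 0.17, adjusted p = 9.7e-06). *Timd4*, a receptor for phosphatidylserine, was at 14.1 and 10.7 CPM against 0.374 and 0.432 CPM, and it was found in 33 Mrc1+ cells. *Ltc4s*, leukotriene C4 synthase, rose by 2.68, *Wwp1* by 2.68, *Mgl2* by 1.69, *Ninj1* by 1.47 and *Igfbp4* by 1.44. *Ednrb* fell by 1.65 and *Cbr2* did not pass, at 420 and 535 CPM against 413 and 547 CPM. The list was drawn up with earlier results of these data known, and its name states no more about the origin of the cells than these counts.

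Genes for the uptake of dying cells were divided, with 5 of 13 higher and 3 lower (median -0.15). *Stab1*, *Gas6* and *Timd4* rose, as did *Mertk*, the receptor for GAS6, at 42.4 and 45.2 CPM against 11.6 and 13.8 CPM (1.72 ± 0.22, adjusted p = 0.0010), and *Pros1*, its other ligand, by 1.64. *Mfge8* fell by 1.20, *Cd300lf* by 3.05, and *Havcr2* (TIM-3) fell by 2.08.

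Complement genes other than C1q were higher in 6 of 10 and lower in 1 (median 0.96). *C4b* was at 197 and 179 CPM against 17.2 and 23.3 CPM (3.15 ± 0.18, adjusted p = 8.6e-06). *Cfp*, properdin, rose by 2.69, the anaphylatoxin receptor *C5ar1* by 2.16, *Itgam* (CD11b) by 1.17 and *C3ar1* by 0.50. The gene that fell was *Itgax*. Of 6 Fc receptors 4 rose and 0 fell (median 0.99), namely *Fcgrt* by 1.55, the inhibitory *Fcgr2b* by 1.21, *Fcgr3* by 1.20 and *Fcgr1* by 0.78.

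Iron and haem genes rose in 5 of 11 and fell in 1 (median 0.86). *Slc40a1*, ferroportin, the only known cellular iron exporter, was at 44.4 and 34.5 CPM against 3.36 and 2.59 CPM (3.62 ± 0.33, adjusted p = 0.00013). *Blvrb*, biliverdin reductase B, was at 623 and 544 CPM against 167 and 181 CPM (1.68 ± 0.13, adjusted p = 5.2e-05). *Cp* (ceruloplasmin) rose by 1.63, *Ncoa4*, the receptor for ferritin breakdown, by 1.39 and *Hmox1*, haem oxygenase, by 0.86. The ferritin heavy chain gene *Fth1* fell by 0.65.

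Lipid and lysosome genes were split evenly, with 6 of 20 higher and 5 lower (median -0.010). *Lpl*, lipoprotein lipase, rose by 1.91, the cholesterol exporter *Abca1* by 1.56, *Lipa* by 0.75, *Ctsl* by 0.65, *Ctsb* by 0.61 and *Apoe* by 0.45. *Apoe* was at 72303 and 63085 CPM against 47537 and 47101 CPM and was the most abundant RNA of the Mrc1+ cells in both libraries. *Lgals3*, *Spp1*, *Cd9*, *Ctsz* and *Cd72* fell. *Cd72*, an inhibitory receptor of B cells and macrophages, was at 313 and 252 CPM against 623 and 591 CPM (-1.17 ± 0.14, adjusted p = 0.00079). *Trem2*, a lipid-sensing receptor, was at 935 and 884 CPM against 742 and 773 CPM and did not pass (0.20 ± 0.11, adjusted p = 0.33).

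Among transcription factors, 4 of 23 rose and 5 fell (median 0.14). *Maf*, known to maintain macrophages of several tissues, was at 427 and 543 CPM against 52.3 and 70.8 CPM (2.91 ± 0.17, adjusted p = 9.7e-06). *Maf* was found in 85.3% of Mrc1+ cells, 22.0% of comparison cells and 3.29% of *Omp* neurons. *Spic*, a factor of iron-recycling macrophages, rose by 1.40, *Klf2* by 0.91 and *Runx1* by 0.82. *Runx3* fell by 1.66, *Cebpa* by 1.12, *Batf3* by 1.01, *Id3* by 0.97 and *Bhlhe40* by 0.93.

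Of 15 inflammatory cytokine genes tested, 2 rose, 2 fell and 11 did not pass (median -0.094). *Il1b* was at 1276 and 903 CPM in Mrc1+ cells against 3503 and 3376 CPM (-1.72 ± 0.16, adjusted p = 0.00014), and *Il1a* fell by 2.20. *Il10*, an anti-inflammatory cytokine, rested on 19 and 58 UMIs (2.57 ± 0.55, adjusted p = 0.016) and lost its call without the library 2 sum of Mrc1+ cells (1.70, adjusted p = 0.079). *Il18* rose by 0.93, and *Tnf* was at 315 and 277 CPM against 222 and 253 CPM (adjusted p = 0.31). Of 13 growth factors, *Igf1*, a trophic factor for neurons and other cells, was at 168 and 182 CPM against 28.4 and 23.7 CPM (2.67 ± 0.17, adjusted p = 1.2e-05). *Bmp2* rose by 1.53, *Vegfa* fell by 1.84 and 10 did not pass (median 0.20).

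Genes often used for microglia were split, with 4 of 11 higher and 2 lower (median -0.32). *P2ry13* rose by 1.37, *P2ry12* by 0.97, *Gpr34* by 0.69 and *Cx3cr1* by 0.52. *Tmem119* was at 87.5 and 81.5 CPM against 144 and 158 CPM (-0.90 ± 0.14, adjusted p = 0.0033), *Olfml3* fell by 0.84 and *Sall1* was near 0 at 0.673 and 0 CPM. *Tmem119* lost its call when cells with 1 *Mrc1* UMI were counted as Mrc1+ cells. General macrophage genes rose in 4 of 12 and fell in 2 (median 0.16), with *Siglec1* up by 2.11, *Lyz2* by 1.45, *Csf1r* by 1.27 and *Adgre1* by 0.93, and with *Ctss* down by 0.75 and *Mpeg1* by 0.52.

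Interferon-stimulated genes rose in 3 of 13, with *Ifit3* up by 0.81, *Ifi204* by 0.64 and *Ifitm3* by 0.38 (median of the 13, 0.43). Genes that respond to tissue dissociation were summed at 22429 and 23013 CPM in Mrc1+ cells and at 20921 and 22948 CPM in comparison cells. Of 16 tested, *Ier3* and *Jun* rose by 1.10 and 0.34, *Atf3* and *Dnajb1* fell by 0.78 and 0.69 and 12 did not pass (median -0.063). Of 12 cell division genes *Stmn1* fell by 0.83 and 11 did not pass (median -0.64). Over all 13100 genes tested, 4.95% rose and 4.58% fell. *Mki67* was found in 10 of 496 Mrc1+ cells (2.02%), 1.16% of comparison cells and 1.10% of *Omp* neurons. The neurons were deeper, with medians of 15811 and 15030 UMIs against 5636 and 5612 in Mrc1+ cells, and these shares were not thinned to one depth.

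Of 134 genes that were called and belong to a list or to the largest changes, 26 lost their call in edgeR when 1 of the 4 sums was left out. Without the library 1 sum of comparison cells, these included *Cx3cr1* (log2 fold change 0.43, adjusted p = 0.13), *Gpr34* (0.46, adjusted p = 0.18), *Runx1* (0.64, adjusted p = 0.078), *Ifi204* (0.51, adjusted p = 0.11), *Ctsz* (-0.49, adjusted p = 0.084) and *Stmn1* (-0.61, adjusted p = 0.16). Without the library 1 sum of Mrc1+ cells they included *Il18* (0.83, adjusted p = 0.10) and *Bhlhe40* (-0.66, adjusted p = 0.070), and without that of library 2 *Olfml3* (-0.66, adjusted p = 0.083) and *Ednrb* (-1.16, adjusted p = 0.10). Large changes were among the losses too, with *Vmn1r58* and *Il10* given above, *Myh11* without the library 2 sum of Mrc1+ cells (-1.39, adjusted p = 0.057) and *Plvap* without the library 1 sum of Mrc1+ cells (-1.44, adjusted p = 0.074) or the library 2 sum of comparison cells (-1.10, adjusted p = 0.14). *Jun*, *Ifitm3*, *C3ar1*, *Mpeg1*, *Kmo*, *H2-DMa* and *H2-Oa* each lost the call in 3 of the 4 fits that left out 1 sum (adjusted p between 0.053 and 0.21). After thinning to 3000 UMIs per cell, *Ednrb* had a log2 fold change of -0.033 (adjusted p = 0.99), *Hmox1* of 0.42 (adjusted p = 0.10) and *Mfge8* of -0.98 (adjusted p = 0.084). At a C1q sum of at least 20 *Apoe* no longer passed (0.23, adjusted p = 0.20).

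MHC class II genes were the group with the broadest fall. Of 10 tested, 8 fell and 0 rose (median -1.36). *H2-Aa* was at 2393 and 1308 CPM in Mrc1+ cells against 6504 and 6587 CPM (-1.88 ± 0.23, adjusted p = 0.00069). *H2-Eb1* fell by 1.95, *H2-Ab1* by 1.86, the invariant chain *Cd74* by 1.82 and *Ciita*, the transactivator of the class II genes, by 1.57. *H2-Oa*, *H2-DMb1* and *H2-DMa* fell by 1.16, 1.15 and 0.67. The Mrc1+ cells of library 2 lay below those of library 1, while the comparison cells of the 2 libraries lay close together.

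Within the Mrc1+ cells class II was not evenly spread. The summed share of *H2-Aa*, *H2-Ab1* and *H2-Eb1* had a median of 0.0894% of a cell's UMIs in library 1 and 0.0466% in library 2, with highest cells at 8.73% and 4.77%. At least 1% was reached by 59 of 249 cells (23.7%, exact 95% confidence interval 18.6 to 29.5) in library 1 and by 40 of 247 (16.2%, 11.8 to 21.4) in library 2. In comparison cells the same level was reached by 61.2% and 66.4%, and in cells with 1 *Mrc1* UMI by 49.1% and 54.4%. The limit of 1% was set after the distribution was seen, and 26 and 22 Mrc1+ cells lay between 0.5% and 1.5%.

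**Figure D4:**
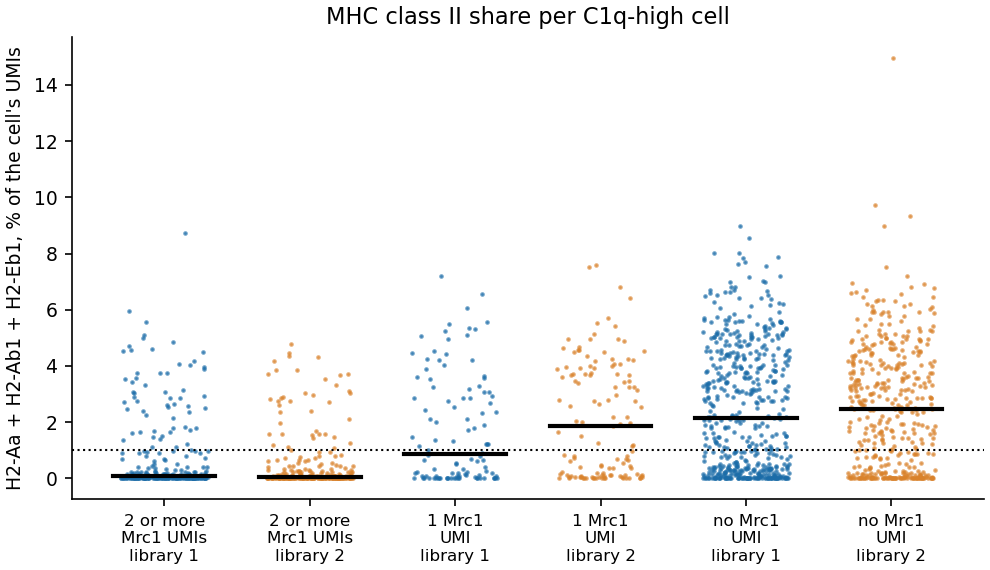
Summed *H2-Aa*, *H2-Ab1* and *H2-Eb1* UMIs as a percent of each C1q-high cell's UMIs (vertical), by *Mrc1* group and library (horizontal), with 1 point per cell, black bars for medians and a dotted line at 1%. Mrc1+ cells have medians of 0.0894% and 0.0466% with a tail above 1%, and cells without *Mrc1* have medians of 2.13% and 2.48%.

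Mrc1+ cells on the 2 sides of 1% class II had similar depth, with medians of 5534 and 5793 UMIs in library 1 and 5560 and 5728.5 in library 2 for the lower and the higher side. The higher side held *Mrc1* at 595 and 689 CPM in libraries 1 and 2, and the lower side at 1250 and 1054 CPM. *Folr2* was at 21.1 and 20.5 CPM on the higher side and at 164 and 139 CPM on the lower. For *Ccl8* the libraries differed, with 68.7 and 611 CPM on the higher side and 1696 and 1525 CPM on the lower. *Ccr2* was at 79.3 and 86.1 CPM on the higher side and at 0.904 and 4.87 CPM on the lower. *Trem2* was nearly level, at 875 and 878 CPM on the higher side and 956 and 885 CPM on the lower. These values are descriptions, because the same cells defined the limit.

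The levels also changed with the number of *Mrc1* UMIs, which deeper cells reach more often. Median depth was 5071 and 5468 UMIs in cells with 2 to 4 *Mrc1* UMIs and 6430 and 6566 in cells with 10 or more, in libraries 1 and 2. *Ccl8* was at 343 and 205 CPM at 2 to 4 *Mrc1* UMIs, at 1064 and 1201 CPM at 5 to 9 and at 3283 and 3949 CPM at 10 or more. *Pf4* was at 2210 and 1660 CPM, then 3610 and 4296 CPM, then 4626 and 4224 CPM over the same steps, so its upper steps were closer than those of *Ccl8*. *H2-Aa* ran the other way, at 3681 and 2176 CPM, then 1721 and 934 CPM, then 641 and 201 CPM. *Il1b* went from 2008 and 1326 CPM to 335 and 335 CPM from the lowest to the highest of these steps.

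**Figure D5:**
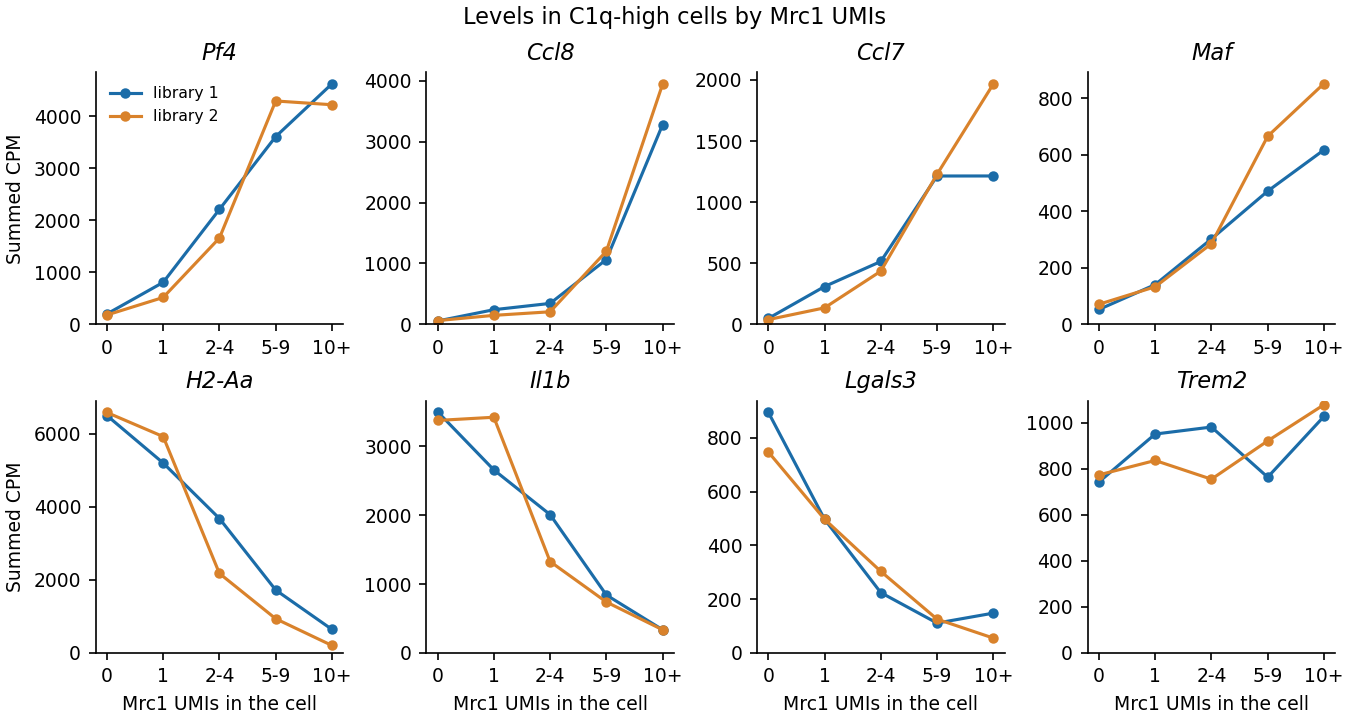
Summed CPM (vertical, each panel with its own scale from 0) of 8 genes in C1q-high cells with 0, 1, 2 to 4, 5 to 9 and 10 or more *Mrc1* UMIs (horizontal), with 1 line per library. *Pf4*, *Ccl8*, *Ccl7* and *Maf* are higher and *H2-Aa*, *Il1b* and *Lgals3* lower in the highest than in the lowest step, while *Trem2* stays between 742 and 1077 CPM.

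The 21 Mrc1+ cells with *Cd209f* are described in the same way. They also held more *Mrc1*, at 1710 and 1608 CPM in libraries 1 and 2 against 1060 and 971 CPM, with a median of 7.5 and 12 UMIs per cell against 4 and 5. They held *Ccl8* at 5475 and 3932 CPM in libraries 1 and 2, against 1129 and 1266 CPM in the Mrc1+ cells without *Cd209f*. In library 2 that level was no higher than the 3949 CPM of all cells with 10 or more *Mrc1* UMIs. *Clec10a* was at 538 and 477 CPM against 133 and 98.7 CPM, and *Pla2g2d* at 327 and 327 CPM against 87.9 and 61.2 CPM. *Il10* was at 115 and 113 CPM against 9.07 and 30.6 CPM, from 6 and 9 UMIs. With 10 and 11 cells these levels rest on few molecules.

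RNA of other cell types was present in both groups. Vomeronasal neuron markers were summed at 388 and 463 CPM in Mrc1+ cells, at 659 and 559.9 CPM in comparison cells and at 6355 and 5788 CPM in *Omp* neurons, with 5 of 10 markers lower and 0 higher. Epithelial markers were at 900.3 and 1040 CPM against 1905 and 1630 CPM, with 4 of 8 lower. All of these neuron and epithelial calls were lost when both groups were held to 4000 to 16000 UMIs per cell, with log2 fold changes from -0.39 for *Calr4* (adjusted p = 0.69) and -0.49 for *Tubb3* (adjusted p = 0.40) to -1.34 for *Krt8* (adjusted p = 0.13). Of them *Gng8*, *Tubb3*, *Uchl1*, *Epcam* and *Cldn4* also lost the call without the library 1 sum of comparison cells (adjusted p between 0.079 and 0.24), and all but *Epcam* without at least 1 of the sums of Mrc1+ cells (library 1 for *Tubb3*, library 2 for *Gng8* and *Cldn4*, either for *Uchl1*). Endothelial markers were at 82.2 and 130 CPM against 169 and 153 CPM, with 2 of 8 lower, and fibroblast and mural markers at 578 and 279.7 CPM against 721 and 331 CPM, with 1 of 9 lower, namely *Myh11*, which lost its call at 4000 to 16000 UMIs too (-1.07, adjusted p = 0.45). The part of this RNA in the comparisons above was not tested.

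Markers of monocytes, dendritic cells, T and NK cells and mast cells were low, while B cell markers had no B cell reference. Monocyte markers were summed at 51.2 and 44.6 CPM against 147 and 190.4 CPM in comparison cells and 6605 and 6763 CPM in cells chosen for *Ly6c2* and *Ccr2*, and 3 of 7 were lower. *Ly6c2* itself had 0 and 2 UMIs in Mrc1+ cells. Dendritic cell markers were at 70.0 and 28.6 CPM against 165 and 175 CPM, with 3 of 10 at 0 in both libraries, *Napsa* lower and *Kmo* higher among 9 tested. T and NK cell markers were at 6.06 and 4.76 CPM, with 7 of 10 at 0 in both libraries and *Il7r* lower. B cell markers were at 332 and 308 CPM against 202 and 202 CPM, with *Cd79b* up by 1.00 and 2 of 8 at 0. Mast cell markers did not exceed 2.02 CPM, ensheathing glia markers did not exceed 6.73 CPM, and red blood cell markers were at 0 CPM in Mrc1+ and in comparison cells.

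Neutrophil markers were summed at 152 and 1426 CPM in Mrc1+ cells and at 468 and 145 CPM in comparison cells, with 0 of 6 past the test. Most of the library 2 value was *Ltf*, lactoferrin, at 1284 CPM, and *Ngp* was at 0 CPM in both libraries. Whether this *Ltf* RNA lay in the cells rich in gland RNA described below was not tested. *S100a8* had 98 UMIs in the Mrc1+ cells of library 2, of which 96 lay in 1 cell called a doublet.

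A few Mrc1+ cells carried much RNA of secretory glands. *Obp2a*, an odorant-binding protein of nasal glands, had 22478 UMIs in the Mrc1+ cells of library 2, of which 21383 lay in a single cell of 64440 UMIs. *Wfdc18* had 36483 UMIs there, with 18808 in that cell and 15115 in a second one of 35333 UMIs. In library 1, 1 cell of 14973 UMIs held 3119 of 4339 *Wfdc18* UMIs. *Wfdc18*, *Obp2a* and *Lcn3* together made up at least 10% of the UMIs in these 3 Mrc1+ cells and in 4 comparison cells, none of which was called a doublet, while the median Mrc1+ cell held 0.160% and 0.128%. Without these 7 cells the test called 1333 genes, 1239 of them among the 1249.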

How the data were processed

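The authors dissociated whole VNOs of postnatal day 60 wild-type mice, captured 2 libraries, each targeting 10000 cells, with 10x Genomics 3′ v3.1 chemistry and processed the reads with Cell Ranger (4 per the labels) against mm10. They joined the libraries with the aggr step, for which no source states a depth setting. The deposited values are UMI counts per gene and barcode for 32285 genes, and the barcode suffix gives the library. The cell limits of 200 to 9000 genes and 5% mitochondrial UMIs follow the study's stated filter. They leave 10591 cells, which is not exactly the study's number. Depth per library and per group is given with the results. Intervals are exact binomial ones and cover counting error only.

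Cells were grouped by the rule at the start of the report. C1q-low cells with at least 2 *Cd209a* UMIs, C1q-low cells with at least 2 *Ly6c2* and 1 *Ccr2* UMIs, and cells with at least 5 *Omp* UMIs and no *Ptprc* UMI served as references. UMIs were summed per group and library, genes with at least 10 UMIs were kept, and edgeR 4.0.16 (TMM, quasi-likelihood F test, Benjamini-Hochberg) in R 4.3.3 compared 2 sums with 2. DESeq2 1.42.0 was an alternative. The code was tested on simulated data. CPM is per 1000000 UMIs of a sum. Doublets were called with Scrublet in scanpy 1.11.5 at an expected 8% and kept. The calls were 20 Mrc1+ cells (4.03%), 25 comparison cells (2.63%) and 192 of all filtered cells (1.81%). Gene positions are GENCODE M21 on mm10.

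The rule for named genes took the given markers, the 10 largest changes in each direction among called genes at 50 CPM or more that moved the same way in both libraries, and up to 4 called genes per list. Further called list members were named after their values were seen, and some list members are not reported here. The members and lists were chosen with earlier results of these data known. The library number marks a shared capture, which pairs the sums. The deviations of same-numbered sums correlated at 0.0495 over 7497 genes, and the fit with library as a block is given beside the main count. The libraries are taken as replicates, although it was not given whether the 5 mice were divided between them or pooled. The p-values thus measure the spread between 2 captures, which may be technical. Counts of the libraries differed beyond the sampling of independent UMIs (chi-square per degree of freedom 8.55 in Mrc1+ cells and 7.01 in comparison cells). That measure leaves out which cells were captured. A single Mrc1+ cell of library 2 held 21383 of 22478 *Obp2a* UMIs, so it cannot tell a difference of libraries from one of captured cells.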

Additional observations from a re-analysis of the deposited data

Results flagged for a closer look

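Outside the cells analysed, 168 barcodes met the C1q, *Mrc1* and *Cd3* limits but had more than 5% mitochondrial UMIs, 91 in library 1 and 77 in library 2, and they are flagged as signal in data that the comparisons leave out. Of these, 68 and 53 had at most 10%. Their median depth was 2618 and 2893 UMIs. They held *Mrc1* at 1097 and 995 CPM, *Pf4* at 1991 and 1682 CPM, *Ccl8* at 1088 and 523 CPM, *Fcrls* at 887 and 708 CPM and *H2-Aa* at 813 and 1028 CPM.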

How the results depend on the processing

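Without a filter on low counts the comparison of Mrc1+ with comparison cells called 1941 genes against 1249, with library as a replicate block 2123, with DESeq2 789, with at least 1 *Mrc1* UMI as the limit 777 and with at least 5 UMIs 1896. A fit leaving out 1 of the 4 sums, in which the lone sum is assumed to vary like the other group, called 902 to 1269 genes. The other fits called 1342 (filterByExpr), 1222 (RLE), 1323 (10% mitochondrial limit), 1481 (without doublets), 1141 (4000 to 16000 UMIs), 1127 (C1q sum of at least 20), 1022 (cells thinned to 3000 UMIs) and 1333 (without the 7 cells rich in gland RNA, an alternative chosen after seeing the data). The block kept all 1249 calls. None of the 134 called genes that were named or listed changed direction in any of these fits, and 41 lost their call in at least 1 of them: 21 at a C1q sum of at least 20, 20 at 4000 to 16000 UMIs, 19 after thinning, 19 at 1 *Mrc1* UMI, 12 with DESeq2, 9 at the 10% mitochondrial limit, 2 at 5 *Mrc1* UMIs, 2 without doublets, 1 with RLE, 1 without the cells rich in gland RNA and 26 in the fits that left out 1 sum. The causes of these losses were not tested. The statement on direction covers only fits in which a gene had a value. At 4000 to 16000 UMIs 113 genes kept and 20 lost the call, and at 5 *Mrc1* UMIs 131 kept and 2 lost it. These 2 fits therefore did not cover all of the 134. The number of Mrc1+ cells fell from 496 to 273 at 5 *Mrc1* UMIs. The comparison of *Lyve1*-positive with *Lyve1*-lacking cells and its alternatives were not run, since 4 cells held a *Lyve1* UMI and 20 per sum were required. Depth limits genes near 0, and comparison cells were shallower than Mrc1+ cells.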
